A study of Macaca mulatta with 12 samples.

Results

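The transition around birth was examined in the superior frontal gyrus, a part of the prefrontal cortex, by setting the 3 fetuses nearest to birth against the 3 youngest postnatal animals. These are 6 of the 12 male rhesus macaques of the study. The late fetal animals were sampled 42, 35 and 30 days before birth and the young postnatal animals at 1, 24 and 182 days of age. Birth and age therefore differ together between the groups and cannot be told apart. The other 6 animals, 3 earlier fetuses (72, 57 and 53 days before birth) and 3 older postnatal animals (353, 479 and 831 days), served as a second pair of groups that shares no animal with the first. No treatment was given. The animals had died suddenly of causes unrelated to the study, and the tissue was taken after death, so that neither the interval before sampling nor the manner of delivery is known from the labels. RNA from each brain was run on its own Affymetrix Human Gene 1.0 ST array, a design for human genes, and every one of the 9630 rows of the deposited table entered the comparison. Nothing in the labels ties samples to a shared litter or culture, and each animal gave 1 array.

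In the primate cortex most neurons are already born and in place before birth. The weeks around birth are a time of neurite growth, synapse formation and glial maturation, with myelin forming late. Birth also exposes the brain to air breathing, to feeding, to sensory input and to a surge of stress and thyroid hormones. Neurons answer activity by quickly transcribing immediate early genes, several of which encode transcription factors that switch on a later wave of genes.

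Values are log2 expression values as deposited, which ran from -0.86 to 10.6 over all animals. The base of the logarithm is read from that span, and each fold below rests on that reading. A value is compared between animals within a row and never between rows, since human probes bind macaque transcripts with unequal strength. A row was called when its adjusted p was under 0.05 (limma on the 6 arrays, Benjamini-Hochberg adjustment over 9630 rows). A difference is the young postnatal minus the late fetal mean, given with its standard error for 3 against 3 animals. A dim value is one under the 20th percentile of its array. Wherever the values of 6 animals are listed, they follow the order of age, from the fetus of 42 days before birth to the animal of 182 days.

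Few markers bear on the tissue label, and a dim value may also come from weak binding of human probes. CAMK2A, a kinase of excitatory neurons, was at 5.40 or more in all 6 animals. TTR, a marker of choroid plexus, was dim in all 6, and so was ALAS2, the single measured gene of red blood cells (1.46 to 2.44). Of the 7 measured meningeal and choroid plexus genes only 1 was dim in all 6 animals, and LUM was dim in 1 animal. MBP, S100B and C3 stood for oligodendrocytes, astrocytes and microglia, while MOG, OLIG2, CLDN5 and the haemoglobin genes were not analysed here. Array medians lay between 4.01 and 4.29. They were higher on average after birth, and the median difference over all rows was 0.09 log2 units, against -0.04 with each array centred on its median and -0.01 after quantile normalization. Differences smaller than about this shift have no settled direction.

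Across birth 496 of the 9630 rows rose, which is 5.15% of all rows, and 162 fell, which is 1.68%. Together 6.83% of rows were called in either direction, and 251 of the rises and 78 of the falls were of at least 1 log2 unit. Counts of called genes in the lists below are to be read against these shares. The lists were chosen with earlier results of these data known. The 3 values of the young postnatal group all lay above the 3 fetal values in 1999 rows (20.8%) and all lay below them in 962 (9.99%), and each of the 658 called rows was among these. At an unadjusted p under 0.05 stood 2519 rows. The split between rises and falls depended on the scaling of the arrays. Rises made up 75.4% of calls on the deposited values, 54.5% after quantile normalization (318 higher, 266 lower) and 48.3% with centred arrays (310 higher, 332 lower), and 475 and 472 of the 658 calls were kept in these settings, none with the opposite sign. The number of calls depended more on which animals were included. Without the fetus of 42 days 18 rows were called higher and 2 lower, without the fetus of 35 days 17 and 4, without the animal of 24 days 33 and 3 and without the animal of 182 days 14 and 1. Without the fetus of 30 days before birth the counts were 399 and 279, and without the 1-day animal they were 1086 and 298. No called row changed sign when an animal was left out.

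The first principal component of the 6 arrays held 56.6% of the variance. The fetuses of 42, 35 and 30 days before birth were at -23.0, -32.6 and -12.1 on it, and the animals of 1, 24 and 182 days at 6.42, 31.1 and 30.2. The groups did not overlap on this axis, and the gap between the fetus of 30 days and the 1-day animal was smaller than that between the 1-day and the 24-day animal. Across rows, which are not independent replicates, the arrays of the 30-day fetus and the 1-day animal correlated with r = 0.967, that of the 30-day fetus with the 42-day fetus with 0.970, and the 1-day animal with the 24-day and 182-day animals with 0.949 and 0.962. Among called rows the 1-day animal was the postnatal animal nearest to the fetal values in 72.8%, against 52.6% of all rows. The 30-day fetus was the fetal animal nearest to the postnatal values in 83.3% of the rows that fell and 58.1% of those that rose, against 46.6% of all rows.

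A scale set by the other 6 animals places each of these animals between the outer ages. It was built after the data were seen, from rows that were called and differed by at least 1 log2 unit between older postnatal and earlier fetal animals, with 0 at the earlier fetal mean and 1 at the older postnatal mean. On the 671 rows that were higher in older postnatal animals, the fetuses of 42, 35 and 30 days stood at median positions of 0.20, 0.07 and 0.32, and the animals of 1, 24 and 182 days at 0.58, 0.87 and 0.91. On the 423 rows that were lower they stood at 0.14, 0.05 and 0.46, then 0.61, 0.68 and 0.82. These are medians within single animals on the deposited values, without a test. The array of the 30-day fetus had the lowest median of the 6 (4.01) and that of the 24-day animal the highest (4.29), and the part of these offsets in the positions was not tested.

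**Figure D1:**
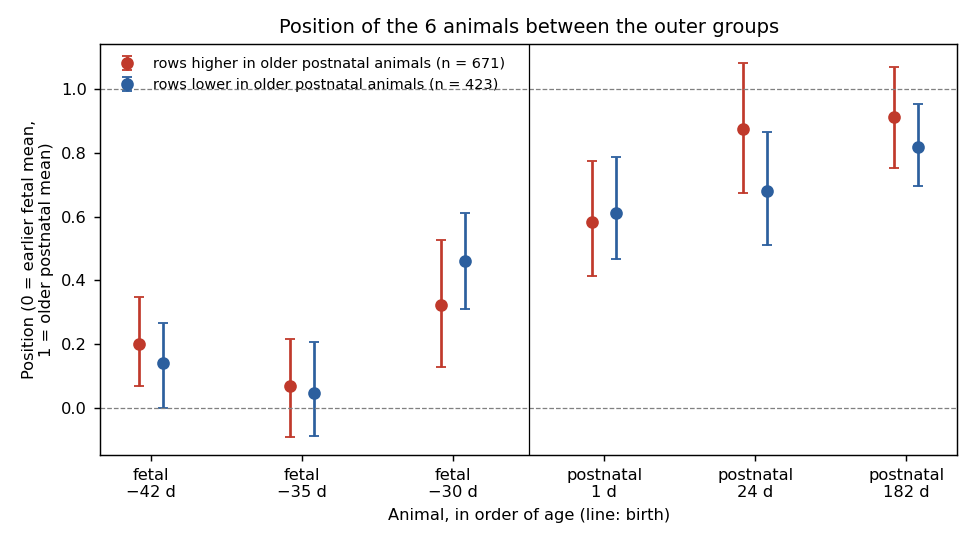
Position of each of the 6 animals (x axis, in order of age) between the earlier fetal mean (0) and the older postnatal mean (1). Points are medians and bars run from the lower to the upper quartile over 671 rows higher and 423 rows lower in older postnatal animals, and the 30-day fetus and the 1-day animal lie between the other animals of both groups.

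The largest rises were those of MBP and ETNPPL. MBP (row 8023889), the major basic protein of compact myelin, was at 2.10, 2.18 and 2.33 in the fetuses and at 4.87, 6.88 and 5.93 after birth. The fetal values were tight and dim, and the postnatal animals were all far above them, the 24-day animal most. MBP rose 12.9-fold, by 3.69 ± 0.40 log2 units (limma adjusted p = 0.00541), and by 3.03 when dim values were raised to the 20th percentile of their array. More cells of a type and more RNA per cell cannot be told apart in these bulk samples, here and for all results below. ETNPPL (row 8102249), an astrocyte enzyme that breaks down phosphoethanolamine, was at 0.37, 0.21 and 2.08 before and 3.57, 5.18 and 4.96 after birth. Its 30-day fetus stood apart from the other 2, and the groups did not overlap. ETNPPL rose by 3.69 ± 0.52 (adjusted p = 0.0139), or 1.71 with dim values raised. MAG (row 8027824), an adhesion protein of myelinating cells, was at 1.60, 1.08 and 1.07 and then 2.99, 5.03 and 3.77. The order of the postnatal animals was that of MBP. MAG rose by 2.68 ± 0.42 (adjusted p = 0.0191), and with dim values raised its difference was 1.07 and the call was lost (adjusted p = 0.133).

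PDYN (row 8064495) encodes the precursor of the dynorphin opioid peptides. It was at 0.79, 1.44 and 1.65 in the fetuses and at 3.80, 4.05 and 4.18 in the postnatal animals. The 3 postnatal values lay close together, the 1-day animal included, and well above the fetal ones. The 3 fetal values were dim. PDYN rose by 2.72 ± 0.23 (adjusted p = 0.00327), and by 1.15 with dim values raised. PTGS2 (row 7922976), the inducible cyclooxygenase that excitatory neurons express with activity, was at 3.07, 2.60 and 3.23 and then 5.37, 5.02 and 5.29. Its postnatal values were level from day 1. PTGS2 rose 4.79-fold, by 2.26 ± 0.21 (adjusted p = 0.00327), and by 2.16 with dim values raised. The other 4 of the 10 largest rises outside the immediate early genes were TESPA1 (2.93), PYGM (2.25), a glycogen phosphorylase, ALDH1A1 (2.25), which makes retinoic acid, and GCNT4 (2.23), a glycosyltransferase. All called rises together held 110 rows whose 3 fetal values were dim, and their folds depend on those dim values.

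The 10 largest falls ran from -2.37 in AVIL to -1.67 in SLCO5A1. AVIL (row 7964555), an actin-binding protein of the villin family, was at 4.29, 4.80 and 3.64 in the fetuses and at 1.97, 1.76 and 1.88 after birth. The 3 postnatal values were dim and close together, and the 30-day fetus was the lowest of the fetuses. AVIL was 5.18-fold lower (log2 difference -2.37 ± 0.27, adjusted p = 0.00541), and with dim values raised the difference was -1.24. SCN9A (row 8056491), a voltage-gated sodium channel best known from pain-sensing neurons, was at 5.58, 5.89 and 4.29 and then 3.65, 2.67 and 2.79. The 30-day fetus and the 1-day animal lay between the other animals, in order of age. SCN9A fell by 2.22 ± 0.40 (adjusted p = 0.0219). DCX (row 8174543), the microtubule protein of migrating neurons, was at 7.17, 7.57 and 6.72 and then 5.76, 5.51 and 5.13. No value of DCX was dim. It fell by 1.69 ± 0.25 (adjusted p = 0.0163).

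The other 7 of the 10 largest falls were of like size. TRIM67, a ubiquitin ligase of developing neurons, fell by 2.25, SRGAP1, which acts downstream of Slit and Robo guidance signals, by 1.90, DPYSL5, a collapsin response mediator of growing neurites, by 1.85 and NPR3, the clearance receptor of natriuretic peptides, by 1.81. POSTN, a matrix protein, fell by 1.73, GJC1, a connexin, by 1.71 and SLCO5A1, a member of the organic anion transporter family, by 1.67. In NPR3 the 30-day fetus (3.79) and the 1-day animal (3.75) all but met, and its adjusted p was 0.0495. With dim values raised, the calls of NPR3 and SLCO5A1 were lost (adjusted p = 0.0567 and 0.061).

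**Figure D2:**
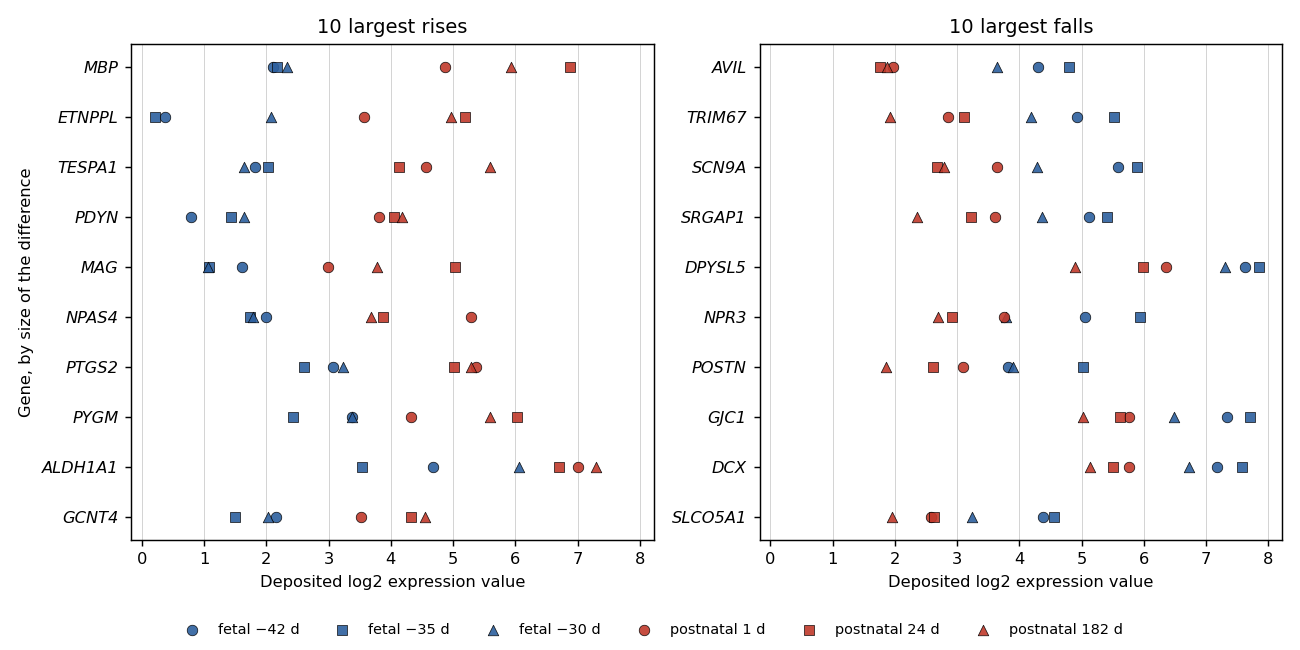
Deposited log2 values (x axis) of the 10 genes with the largest rises and the 10 with the largest falls, 1 row per gene, with 1 marker for each of the 6 animals (blue fetal, red postnatal). The genes were chosen so that the blue and red markers do not overlap, and the narrowest gap is in NPR3.

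A set of 12 rows kept their call when each of the 6 animals was left out in turn: MBP, TESPA1, PDYN, PTGS2, GCNT4, FOS, NPTX2, PPP1R3C, GNG7 and ADCYAP1, which rose, AVIL, which fell, and a row that has no gene symbol (8169061) and rose by 2.20. They were named after their values were seen. NPTX2, an activity-regulated pentraxin that gathers glutamate receptors at synapses, was at 2.63, 2.82 and 3.38 and then 4.60, 5.0 and 4.76. ADCYAP1, the neuropeptide PACAP, was at 2.53, 1.71 and 2.27 and then 4.09, 3.82 and 3.78. In ADCYAP1 the 1-day animal was the highest of all, and in NPTX2 it was the lowest of a close postnatal group. NPTX2 rose by 1.84 ± 0.22 and ADCYAP1 by 1.73 ± 0.22 (limma adjusted p = 0.00828 and 0.0124). GNG7, a G protein subunit, rose by 1.82 and PPP1R3C, which steers a phosphatase to glycogen, by 1.83.

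Of 19 measured immediate early genes 12 rose and none fell at the threshold, against 5.15% of all rows that rose, and the median difference was 1.21 log2 units against 0.09 over all rows. FOS (row 7975779), the founding member of the AP-1 transcription factors, was at 1.34, 1.35 and 2.02 in the fetuses and at 3.59, 4.15 and 3.52 after birth. The 3 fetal values were dim. FOS rose by 2.19 ± 0.24 (adjusted p = 0.00541), and by 0.89 with dim values raised. NPAS4 (row 7941599), a transcription factor that neurons switch on with calcium entry, was at 2.00, 1.73 and 1.79 and then 5.29, 3.88 and 3.68. Its highest value was that of the 1-day animal. NPAS4 rose by 2.44 ± 0.36 (adjusted p = 0.0165), and by 1.42 with dim values raised. EGR1, a zinc finger factor induced with plasticity, was at 2.66, 2.69 and 4.30 and then 5.04, 5.43 and 5.16. Here the 30-day fetus was nearer to the postnatal animals than to the other fetuses. EGR1 rose by 1.99 ± 0.38 (adjusted p = 0.0247).

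The other genes of this list that rose were the orphan nuclear receptors NR4A1 (2.11) and NR4A3 (1.02), the MAP kinase phosphatases DUSP6 (1.89) and DUSP1 (1.37), the AP-1 members JUNB (1.61), FOSB (1.51) and FOSL2 (1.33), the synaptic protein ARC (1.21) and EGR3 (1.15). DUSP6 was at 4.51, 4.33 and 5.47 before and 7.0, 6.76 and 6.22 after birth, highest in the 1-day animal and dim in none. FOSB was at 1.24, 1.53 and 1.35 and then 3.42, 2.94 and 2.31. It too was highest at 1 day. The calls of FOSB and NR4A3 were lost with dim values raised (0.32 and 0.14), and that of EGR3 after quantile normalization and with centred arrays (1.02 in both). JUN (0.17), JUND (0.64), IER2 (0.72), DUSP5 (0.64) and MCL1 (0.12) were not called. MYC (-0.85) and KLF6 (-0.24) had the opposite sign without a call, and all 3 of their postnatal values lay below all 3 fetal ones. The number of immediate early genes that rose was 11 after either rescaling, 10 with dim values raised and 14 without the 1-day animal. It was 1 without the fetus of 42 days, 3 without the fetus of 35 days and 3 without the animal of 24 or of 182 days.

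All 3 young postnatal animals were high in these genes. The 1-day animal was above the mean of the older postnatal animals in 10 of the 12 immediate early genes that rose (83.3%). Over all 496 rows that rose it was above that mean in 107 (21.6%). The 24-day animal exceeded that mean in every one of the 12 genes. The 182-day animal did so in all but DUSP6 (6.22 against 6.26) and JUNB (4.01 against 4.08). The share over all rows that rose was not counted for these 2 animals. Of the 12 genes the 24-day animal was the highest in 7, the 1-day animal in 3 and the 182-day animal in 2. On the scale of the outer groups, the 10 immediate early genes that could be placed were at median positions of 0.12, -0.06 and 0.54 in the fetuses and 1.18, 1.37 and 1.13 in the animals of 1, 24 and 182 days. The placed genes included MYC and KLF6, which were lower in older postnatal animals. ARC, FOSB, DUSP1 and NR4A3, which rose across birth, were not among them. The median change of the 19 genes was 1.21 across birth and 0.85 between the outer groups. The difference between these 2 changes was not called for any of them: it was 1.14 ± 0.53 for NPAS4 and 0.76 ± 0.34 for FOS (adjusted p = 0.58 and 0.569).

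Of 12 measured myelin genes 6 rose and none fell, with a median difference of 1.35 (0.72 with dim values raised). Besides MBP and MAG these were OPALIN, a membrane protein of oligodendrocytes, ERMN, a cytoskeletal protein of the myelin sheath, CLDN11, the tight junction protein of myelin, and UGT8, which makes galactocerebroside. UGT8 was at 2.09, 2.80 and 2.38 and then 3.55, 5.14 and 3.90. ERMN was at 0.26, 0.19 and 0.15 and then 1.12, 2.87 and 3.08. In 5 of the 6 genes that rose the 24-day animal was the highest, and in none did the 1-day animal exceed the older postnatal mean. UGT8 rose by 1.77 ± 0.37 (limma adjusted p = 0.0289), and by 1.34 with dim values raised. ERMN and OPALIN were dim in the 3 fetuses and in 2 of the 3 postnatal animals, so that the size of their rise is not settled, and with dim values raised their differences were 0.17 and 0.57 and both calls were lost. With dim values raised 3 myelin genes were called. The mean level of the list ran from 2.56 to 2.65 in the fetuses and from 3.43 to 4.66 after birth. None of the 7 measured oligodendrocyte precursor genes was called on the deposited values. PDGFRA, their growth factor receptor, was at 4.13, 4.73 and 4.87 and then 4.35, 4.82 and 4.39, and VCAN, a proteoglycan, had the smallest p (-1.17 ± 0.35, adjusted p = 0.0723). With centred arrays VCAN was called lower (limma adjusted p = 0.0464). The number of myelin genes called was 1 or 2 without the animal of 24 or 182 days or the fetus of 42 or 35 days, and 9 without the 1-day animal.

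Astrocyte genes stood higher in the 30-day fetus than in the other fetuses. Of 16 measured genes 5 rose and none fell, and 15 differences were positive (median 0.92). ETNPPL led, followed by S100B, a calcium-binding protein, CLU, a secreted chaperone, SLC1A2, the main glutamate transporter, and ALDOC, a glycolytic enzyme of astrocytes. S100B was at 5.21, 4.40 and 5.42 and then 6.16, 6.60 and 6.76. SLC1A2 was at 7.33, 6.79 and 7.96 and then 8.21, 8.72 and 8.70. In both genes the 30-day fetus was the highest fetus and the 1-day animal the lowest postnatal one. S100B rose by 1.5 ± 0.27 and SLC1A2 by 1.18 ± 0.28 (limma adjusted p = 0.0219 and 0.0413). On the scale of the outer groups the 30-day fetus stood at 0.54 for the 11 placed astrocyte genes and the 1-day animal at 0.59, while the 10 placed myelin genes stood at -0.03 and 0.43 in the same animals. No astrocyte gene was called without the fetus of 42 or 35 days or the animal of 24 or 182 days, 8 were when either animal nearest birth was left out, and 3 were with centred arrays.

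Of 8 microglial genes 1 rose, the complement component C3, by 1.45 ± 0.31 (adjusted p = 0.0311). It was at 4.21, 3.17 and 4.19 and then 4.97, 5.80 and 5.14. Of 16 endothelial and pericyte genes the drug efflux pump ABCB1 rose (0.80), a call lost under both rescalings, and of 7 meningeal and choroid plexus genes none was called. The share of endothelial and pericyte genes called, 6.25%, was near the 6.83% of all rows. The mean level of the meningeal list was 3.32 to 3.85 before and 3.41 to 4.34 after birth, highest in the 24-day animal. Of 14 progenitor genes PROM1, a membrane protein of stem cells, and FABP7, the lipid carrier of radial glia, fell (by 1.29 and 1.14), and HOPX was called higher on dim values alone. TYMS, which makes thymidylate, was the single cell cycle gene called (-0.87), with 6 dim values, and its difference became 0.14 when they were raised. Of the 12 measured cell cycle genes 7 were dim in all 6 animals.

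**Figure D3:**
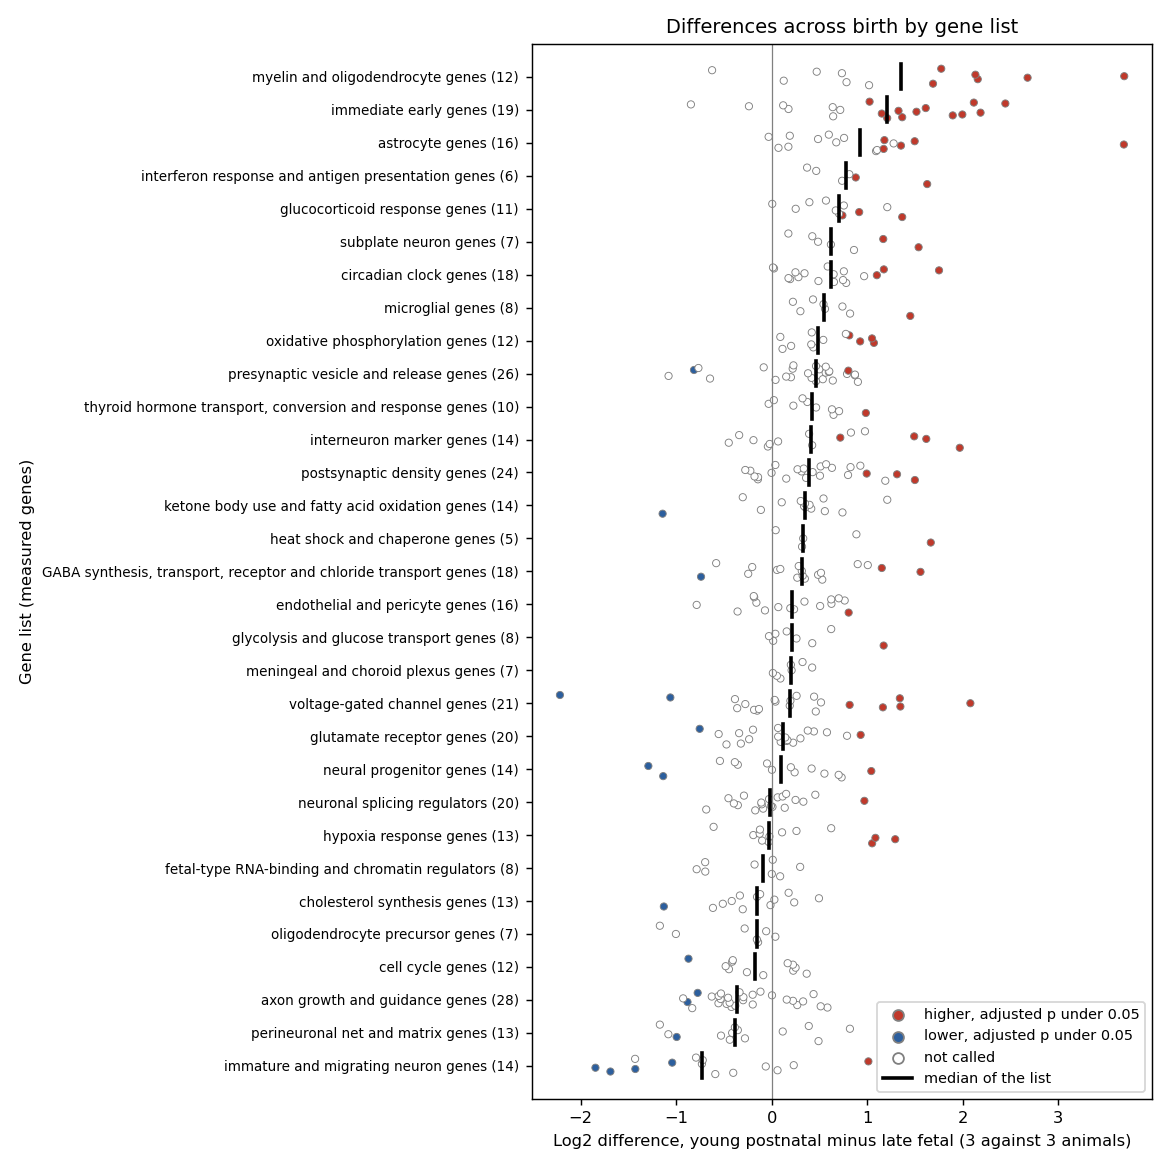
Log2 difference of each measured gene (x axis, young postnatal minus late fetal, 3 against 3 animals) by gene list, with the number of measured genes in brackets. Filled points are called genes (adjusted p under 0.05) and black bars are list medians, which run from -0.73 for immature neuron genes to 1.35 for myelin genes, against a median of 0.09 over all rows.

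Genes of immature neurons held called falls. Of 14 measured genes DPYSL5, DCX, DPYSL3 and NREP fell, against 1.68% of all rows that fell, 1 rose (RND2, a small GTPase of migrating neurons, by 1.01), and the median difference was -0.73. DPYSL3, which binds tubulin in growing neurites, was at 7.82, 8.28 and 7.68 and then 6.93, 6.66 and 5.91. NREP was at 9.18, 9.10 and 8.92 and then 8.26, 7.95 and 7.86. All 4 genes that fell were lowest in the animal of 182 days. DPYSL3 fell by 1.43 ± 0.27 and NREP by 1.04 ± 0.18 (limma adjusted p = 0.0245 and 0.0216). With centred arrays 8 of the 14 fell, and without the fetus of 42 or 35 days or the animal of 24 or 182 days none did. Of 28 axon growth genes 2 fell, MAP1B and STMN2, both microtubule regulators of growing axons, by 0.88 and 0.78. The share of axon growth genes called, 7.14%, was near the 6.83% of all rows called in either direction. The call of STMN2 was lost after quantile normalization (-0.48), and 5 axon genes fell with centred arrays. The mean level of the immature neuron list ran from 5.36 to 6.0 in the fetuses and from 4.81 to 5.19 after birth, and the 30-day fetus was the lowest of the fetuses.

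Of 26 presynaptic genes 2 were called, a share near the 6.83% of all rows that were called. They were synapsins, proteins that tether vesicles: SYN2 rose by 0.80 ± 0.19 and SYN3 fell by 0.81 ± 0.21 (limma adjusted p = 0.0383 and 0.0486). SYN3 was at 4.04, 4.65 and 3.97 and then 3.27, 3.41 and 3.54, and its lowest value was that of the 1-day animal. Of 24 postsynaptic genes 3 rose, the kinase CAMK2A (1.5) and the scaffolds DLGAP3 (1.31) and HOMER1 (0.99). The 3 fetal values of DLGAP3 were dim, and its call was lost with dim values raised (0.49, limma adjusted p = 0.159) and under both rescalings. CAMK2A was at 6.10, 5.40 and 6.70 and then 7.12, 7.82 and 7.76. The medians of these 2 lists were 0.46 and 0.39. The number of presynaptic genes that rose depended on the animals near birth, with 6 without the 1-day animal and 10 without it and the 30-day fetus.

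Of 20 glutamate receptor genes 2 were called (10%, against 6.83% of all rows), GRIN2A and GRM7. GRIN2A, the NMDA receptor subunit of mature synapses, was at 6.0, 5.51 and 6.09 and then 6.39, 7.09 and 6.90. GRIN2B, the subunit that prevails early in life, was at 7.93, 8.05 and 7.93 and then 7.44, 7.52 and 7.29. The groups did not overlap in either gene. GRIN2A rose by 0.93 ± 0.23 (limma adjusted p = 0.0458), a call lost under both rescalings, and GRIN2B missed the threshold (-0.56 ± 0.16, adjusted p = 0.0668). GRIN2B was called lower with centred arrays (limma adjusted p = 0.0376) and with dim values raised (0.0395), but not after quantile normalization (0.0593). GRM7, a presynaptic glutamate receptor, fell by 0.75. Of 18 measured genes of GABA signalling 16.7% were called. GABRD, a subunit of extrasynaptic receptors, rose by 1.56 and the synthetic enzyme GAD2 by 1.15, while the receptor subunit GABRA3 fell by 0.74. Of 21 measured voltage-gated channel genes 33.3% were called. KCNH1 (2.08), KCNAB2, SCN2B, KCNA1 and KCNC2 rose and SCN9A and SCN3A fell. The calls of SCN2B and KCNC2 were lost under both rescalings. KCNH1, a potassium channel, was at 4.42, 3.68 and 5.06 and then 5.86, 6.35 and 7.19, in order of age after birth.

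The 4 measured pairs of genes known to replace each other in development were compared within animals, as the late minus the early gene, which centring of the arrays does not change. The balance of GRIN2A over GRIN2B went up by 1.49, that of SCN1A over SCN3A by 1.09 and that of SLC17A7 over SLC17A6, the vesicular glutamate transporters, by 1.95. In these 3 pairs the 3 postnatal values lay above the 3 fetal ones (exact permutation test, two-sided, p = 0.1 each, the smallest that 3 against 3 can give, 0.133 adjusted over 4 pairs). The balance of SLC12A5 over SLC12A2, the chloride transporters that set the sign of GABA signalling, was at -0.72, -0.95 and -0.39 in the fetuses and at -0.65, 0.14 and 0.62 after birth. Its 1-day animal lay among the fetuses (exact permutation p = 0.2), and no pair could reach 0.05. In the sodium channel pair the change lay in SCN3A, which fell by 1.06 ± 0.23 (limma adjusted p = 0.0311), while SCN1A differed by 0.03 ± 0.18.

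Interneuron genes had 4 rises among 14 measured and no fall (median 0.41). CALB1, the calcium buffer calbindin, was at 4.23, 4.22 and 3.70 and then 5.47, 5.66 and 6.93. NPY, a peptide of interneurons, was at 3.48, 3.96 and 4.08 and then 5.01, 5.79 and 5.57. In both genes the 1-day animal was already well above the fetuses. CALB1 rose by 1.97 ± 0.35 and NPY by 1.62 ± 0.24 (limma adjusted p = 0.0219 and 0.0165), and PVALB (1.49) and the nociceptin precursor PNOC (0.72) were the other rises. The calls of PVALB and PNOC were lost under both rescalings, and PVALB was dim in 5 of 6 animals. Under either rescaling 2 interneuron genes were called. Subplate genes mark a transient layer beneath the cortical plate, and none of 7 measured was called lower. CDH18, a cadherin, rose by 1.54 and NR4A2, an orphan nuclear receptor, by 1.17. NR4A2 is also induced by activity.

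**Figure D4:**
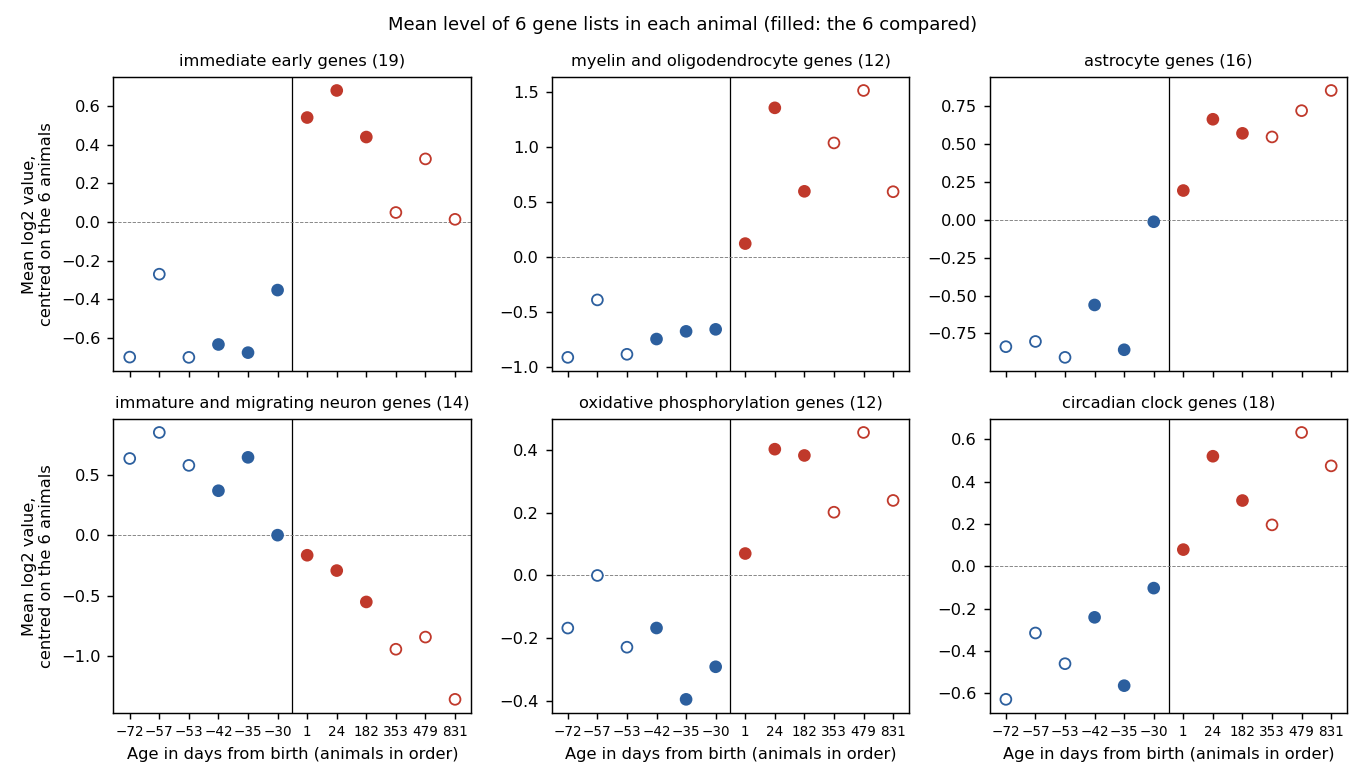
Mean log2 value of 6 gene lists in each of the 12 animals (y axis), centred on the 6 animals compared across birth, which are filled, with the outer animals open (x axis, age in days from birth). Immediate early genes are highest in the 3 young postnatal animals, at 0.44 to 0.68, whereas immature neuron genes go on falling in the older animals.

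Genes linked to the hormonal and metabolic changes at birth were examined as lists, chosen with earlier results of these data known. A change in them cannot be assigned to birth rather than to age. Of 11 glucocorticoid response genes 3 rose, DUSP1 (1.37), the NF-kappaB inhibitor NFKBIA (0.91) and the receptor tyrosine kinase inhibitor ERRFI1 (0.74), and the call of ERRFI1 was lost under both rescalings. PDK4, which spares glucose, was at 2.40, 1.92 and 2.27 and then 3.75, 2.54 and 3.93 (adjusted p = 0.0567), and the glucocorticoid receptor itself, NR3C1, differed by 0.67 (adjusted p = 0.0634). SGK1, a kinase that glucocorticoids induce, differed by 0.00 ± 0.23, and TSC22D3 and PER1, which they also induce, were not called. DUSP1 is a member of the immediate early list as well. Of 10 thyroid hormone genes 1 rose, DIO2, the enzyme that makes active hormone within the brain, by 0.98 ± 0.25 (limma adjusted p = 0.0451). DIO2 was at 3.85, 3.09 and 3.59 and then 4.15, 4.86 and 4.47. Its call was lost under both rescalings. The receptors THRA and THRB differed by 0.37 and 0.02, and neither was called.

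Of 12 measured genes of oxidative phosphorylation 4 rose and all 12 differences were positive on the deposited values (median 0.49), though not all with centred arrays. CYC1, a subunit of complex III, was at 5.35, 5.23 and 5.29 and then 6.01, 6.56 and 6.52. It rose by 1.07 ± 0.19 (adjusted p = 0.0219), and the complex I subunits NDUFS3 (1.05), NDUFA8 (0.92) and NDUFV1 (0.81) were the others. Only 12 of the 50 listed genes were measured, and 2 rose with centred arrays. Of 13 hypoxia response genes EGLN3 and BNIP3, both targets of hypoxia-inducible factors, and EPAS1, which encodes such a factor, rose by 1.29, 1.05 and 1.08, whereas the list median was -0.02. Of 14 genes of ketone and fatty acid use ACADL, a mitochondrial dehydrogenase, was called lower on dim postnatal values (-1.14, and -0.15 with those raised). HMGCS1, an early enzyme of cholesterol synthesis, fell by 1.13, from 9.04, 9.06 and 8.58 to 7.77, 7.89 and 7.62, and was 1 of 13 such genes called. The shares called in these last 2 lists, 7.14% and 7.69%, lay near the 6.83% of all rows.

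Circadian clock genes differed upwards in 18 of 18 measured on the deposited values, though not in all of them under either rescaling, with 3 called. PER2, a repressor of the clock that also responds to stimuli, was at 2.39, 2.32 and 4.03 and then 4.25, 4.99 and 4.76. The 30-day fetus stood with the postnatal animals. PER2 rose by 1.75 ± 0.41 (limma adjusted p = 0.0387), PER3 by 1.17 and the transcription factor HLF by 1.10, and all 3 were highest in the 24-day animal. The call of PER2 was lost after quantile normalization and that of PER3 under both rescalings. B2M, the light chain of MHC class I, was at 5.38, 4.58 and 5.07 and then 6.16, 6.51 and 7.24. It rose by 1.63 ± 0.29 (limma adjusted p = 0.0219), among 6 measured genes of interferon response and antigen presentation. The other call of that list was IFIT2 (0.88). It was dim in all 6 animals, and its difference was 0.14 with dim values raised. CRYAB, a small heat shock protein of glia, rose by 1.66 ± 0.30 (limma adjusted p = 0.0219) as 1 of 5 measured chaperone genes. FN1, a fibronectin, fell by 1.00 and was the 1 matrix gene of 13 called, and MBNL2, a splicing regulator of maturing tissue, rose by 0.97 as 1 of 20. These shares, 7.69% and 5%, lay near the 6.83% of all rows called in either direction. Of 8 fetal-type regulators none was called on the deposited values, and EZH2, a chromatin modifier, came nearest (-0.70 ± 0.20, limma adjusted p = 0.0682). EZH2 was called lower with centred arrays (limma adjusted p = 0.0326) and after quantile normalization (0.0349). Its 3 postnatal values were dim, and with dim values raised its difference was -0.13 without a call.

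The last comparison asked whether the change across birth differed from the change between the outer groups. Both changes span birth together with age, so that this comparison cannot tell birth and age apart. Older postnatal against earlier fetal animals gave 1141 higher (11.8%) and 857 lower rows (8.9%). Of the 496 rows that rose across birth 350 (70.6%) were also called higher between the outer groups and none was called lower. Of the 162 that fell 127 (78.4%) were also called lower and none was called higher. Seen from the outer groups, 98.4% of the 1141 higher and 95.2% of the 857 lower rows had the same sign across birth, where 30.7% and 14.8% of them were called. Agreement of sign was common over all rows too. Of all rows higher across birth 75.3% had the same sign between the outer groups, and of all rows lower 81.2%. These shares start from the sign across birth and not from the outer calls, so that they are no direct baseline for the 98.4% and 95.2%. A test of the difference between the 2 changes on all 12 arrays called 0 rows (0%, limma), with 825 rows at an unadjusted p under 0.05 and a smallest adjusted p of 0.279. With array weights it called 430 rows, with a trended robust prior 6 and without the 182-day animal 2.

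The genes with the smallest p in this test changed less across birth than between the outer groups. RPRM, a cell cycle arrest protein, fell by 1.16 across birth and by 3.52 between the outer groups. PTH2R, a parathyroid hormone family receptor, fell by 1.52 and by 3.70. TMEM130, a membrane protein, rose by 0.96 and by 2.16, and CLMN, a calponin-like protein, differed by 0.41 and rose by 1.90. DPYSL5 and CRYAB, named above, also lay on this side, with 1.85 against 3.83 lower and 1.66 against 3.45 higher. None of these differences passed the adjusted threshold. On simulated data the same test recovered 32% of rows shifted by 1 log2 unit and 90% of those shifted by 2, and the birth comparison 50% and 94%. The simulated tables had 200 changed rows of 9630, whereas 2519 real rows stood at an unadjusted p under 0.05 across birth (limma). Median row standard deviations were larger in earlier fetal and older postnatal animals (0.24 and 0.26) than in late fetal and young postnatal animals (0.20 and 0.23). The recovered shares therefore hold for the simulated tables and do not give the power of either test on the real data.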

How the data were processed

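The authors deposited 1 table of log2 expression values for 12 arrays. Background correction, scaling and row filters: not given in the sources used here. Per the submitters' processing notes, the genome build was hg18. The 9630 rows were named from the platform annotation held by GEO: 8848 had 1 symbol, 229 several and 553 none. Where a gene had several rows (52 genes), the brightest on average over 12 arrays stood for it. 8648 of the 8785 symbols were in macaque gene tables.

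Groups came from the age labels. limma 3.58.1 (lmFit and eBayes, R 4.3.3) tested the log2 differences on the 6 arrays, with Benjamini-Hochberg adjustment over all rows and a threshold of 0.05. The change across birth was set against that of the outer groups by a contrast over 12 arrays. P-values set each difference between groups against the spread within groups, where differences of age and of animal cannot be told apart. The number of arrays limits the precision, and the ages within a group differ.

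The comparison, its 32 gene lists and the rule for named genes were chosen with earlier results of these data known. The rule took the 10 largest called rises and falls whose groups did not overlap and whose higher group was above the 20th percentile of its arrays, and, in each list, the 2 called members that differed most plus the strongest called member of opposite sign. A list without calls gave its member of smallest p. Also named were the exchange pairs, 2 genes per direction from the test against the outer groups, and the immediate early, glucocorticoid and thyroid lists. Other called list members and the rows kept in every leave-one-out fit were named after their values were seen. A list is described by its counts and its median, without a test of the list.

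Calls and list medians were recomputed with quantile-normalized arrays, with arrays centred on their medians and after removing the dimmest 25 percent of rows. Other settings were raising values under the 20th percentile of an array to it, a trended robust prior, array weights and averaging rows of 1 gene. A fit of 12 arrays, each animal left out, and the animals nearest birth left out together were further settings. Counts of rows without overlap and the test against the outer groups were recomputed in some of these. Principal components, array correlations, positions, nearest-animal shares, the calls between the outer groups and their overlap with the birth calls rest on the deposited values only. Simulated tables (9630 rows, 200 of them changed) were used to test the fits.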

Additional observations from a re-analysis of the deposited data

How the results depend on the processing

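No paired analysis applied, since the groups hold different animals with 1 array each. The labels carry no replicate numbers. Replicate numbers follow the order of accession, and late fetal replicates 1, 2 and 3 are the fetuses of 30, 42 and 35 days before birth. Depth is not defined for these arrays, and dim rows limit the folds: 110 called rises had 3 dim fetal values and 38 called falls had 3 dim postnatal values. The cause of the changes below was not tested.

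Rows called higher were 318 after quantile normalization, 310 with centred arrays, 1669 with array weights and 1052 without the animals nearest birth, and 14 to 1086 when 1 animal was left out, against 496. Rows called lower were 266, 332, 931 and 544 in the same settings, 283 with a trended robust prior and 1 to 298 with 1 animal left out, against 162. The fit of all 12 arrays called 502 and 198. Of the 658 calls, 8 had the opposite sign with dim values raised and none in any other setting. Rows without overlap were 1309 higher with centred arrays, and 1578 lower after quantile normalization and 1720 with centred arrays. Without the animals nearest birth they were 3698 and 2458, and with 1 animal left out 2282 to 3338 and 1095 to 1996. The test against the outer groups called 6 rows with a trended robust prior, 430 with array weights and 0 to 2 with 1 animal left out.

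Of 464 list medians under other settings, 50 moved by more than the spread between animals and 19 changed sign, in 8 lists. With dim values raised the medians were 0.72 for myelin, 0.14 for the cell cycle, 0.89 for immediate early, 0.55 for glucocorticoid response, 0.11 for hypoxia, 0.28 for interferon and antigen presentation and -0.0018 for fetal-type regulators. TYMS turned to 0.14 there. After quantile normalization they were -0.045 for progenitors, 0.0076 for glutamate receptors, 0.049 for voltage-gated channels, 0.26 for ketone and fatty acid use, -0.21 for fetal-type regulators and -0.10 for splicing. With centred arrays they were -0.029 for progenitors, -0.49 for axon growth, -0.013 for glutamate receptors, 0.22 for ketone and fatty acid use, -0.22 for fetal-type regulators and -0.15 for splicing. Without the dimmest rows they were -0.0496 for progenitors, 0.22 for the cell cycle, 0.55 for interneurons, 0.89 for chaperones, 0.78 for oxidative phosphorylation and 0.0002 for fetal-type regulators. Array weights gave 0.0006 for progenitors, -0.18 for fetal-type regulators and -0.065 for splicing. Without the animals nearest birth the medians were 1.31 for astrocytes, 0.39 for endothelium and pericytes, 0.0077 for progenitors, 0.99 for subplate, 0.47 for GABA signalling, 0.88 for glucocorticoid response, 0.63 for thyroid hormone and 0.71 for oxidative phosphorylation.

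With 1 animal left out, medians ran from 0.092 to 0.41 for endothelium and pericytes, 0.023 to 0.23 for progenitors, 0.59 to 0.85 for subplate, 0.16 to 0.44 for GABA signalling, 0.53 to 0.86 for glucocorticoid response, 0.25 to 0.58 for chaperones, 0.27 to 0.45 for ketone and fatty acid use, -0.15 to -0.0315 for fetal-type regulators and -0.057 to 0.0088 for splicing. Of the 76 called named genes, 67 were kept after quantile normalization, 68 with centred arrays, 66 with dim values raised and 73 in the fit of 12 arrays. With 1 animal left out 7 to 74 were kept.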
